A study of Mus musculus with 3 samples.

Results

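The genes described here are 10 members of the costimulatory pathway that signals through the immunoreceptor tyrosine-based activation motif (ITAM), chosen as a list of symbols: Oscar, Trem2, Siglec15, Tyrobp, Fcer1g, Pirb, Lilrb4a, Syk, Btk and Plcg2. All 10 were found among the 54532 genes of the deposited table, and 9 of the 10 had a mean of at least 1 FPKM (fragments per kilobase, a level corrected for gene length and sequencing depth), as did 11069 genes in all. Pirb did not. The libraries came from the wild-type mouse macrophage line RAW264.7, which turns into osteoclasts, the cells that resorb bone, when given the cytokine RANKL. All cells had RANKL for 3 days. One group then had no thyroid stimulating hormone (TSH, labelled 0 h), and the others had TSH at 10 mU/mL for 2 h or for 24 h, with 1 library in each group. The table names the TSH libraries T1 and T2 without their hours, so nothing below is read by time.

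As background, osteoclast formation needs RANKL and, beside it, a costimulatory signal from receptors of the immunoglobulin superfamily. These receptors have short tails of their own and pair in the membrane with an adaptor, DAP12 (the product of Tyrobp) or the Fc receptor common gamma chain (the product of Fcer1g), that carries the ITAM. Src family kinases phosphorylate the ITAM tyrosines, the kinase Syk docks on them, and Btk and the phospholipase PLCγ2 then release calcium, which activates the transcription factor NFATc1. Other receptors carry an inhibitory motif (ITIM) that recruits phosphatases and opposes this signal.

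The recovered reads summed to 16156926 in the library of RANKL alone, 16809034 in T1 and 17390744 in T2. With 1 library per group no test of TSH could be made, and time in culture may differ along with TSH, so that they cannot be told apart. Every interval of a ratio below is an exact conditional (Clopper-Pearson) 95% interval from the reads of a gene, those of levels are exact Poisson 95% intervals, and both cover counting error only. A gene is called lower or higher beyond counting error where the interval of its FPKM ratio leaves out 1, which compares those libraries and not the conditions. Both TSH comparisons use the same library of RANKL alone, so their results are not independent. In bulk RNA, fewer cells of a type and less RNA per cell cannot be told apart.

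The stretches that give the pathway its name were read from the coding sequence of the principal transcript of each member (GENCODE M21, GRCm38). The ITAM was searched as a tyrosine, 2 residues, leucine or isoleucine, 6 to 12 residues, and again a tyrosine, 2 residues, leucine or isoleucine. Of the 10 members only the adaptors matched, once each, against 6.48% of 21589 proteins. In Tyrobp the match spans codons 92 to 106 of 114, and in Fcer1g codons 65 to 79 of 86, so in both it lies near the end of a short protein. They are shown because the activating receptors signal through one of these stretches of 45 bases, with the tyrosine codons that are phosphorylated in capitals:
Tyrobp: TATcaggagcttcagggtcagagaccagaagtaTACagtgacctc
Fcer1g: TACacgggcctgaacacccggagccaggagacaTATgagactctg

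The inhibitory receptors among the members carry the other motif, searched as isoleucine, valine, leucine or serine, 1 residue, a tyrosine, 2 residues, and isoleucine, valine or leucine. This short pattern matched in 48.9% of proteins and is a description, not a site. Pirb held 4 matches and Lilrb4a 3, and the matches toward the end of each protein are shown here, with the tyrosine codon in capitals, named by that codon (Pirb has 841 codons and Lilrb4a 335):
Pirb codon 713: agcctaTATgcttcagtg
Pirb codon 794: gtgaccTATgcccagctg
Pirb codon 824: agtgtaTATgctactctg
Lilrb4a codon 300: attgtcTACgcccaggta
Lilrb4a codon 322: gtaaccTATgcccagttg
The ITIM pattern also matched 2 times in Plcg2 and once each in Siglec15, Tyrobp and Fcer1g, and not in Oscar, Trem2, Syk or Btk.

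In level, the adaptors stood above every receptor among the members. Tyrobp was at 453 FPKM after RANKL alone, at percentile 99.1 of the 11069 genes, and Fcer1g at 106 FPKM, at percentile 95.9. Siglec15 followed at 72.2 FPKM, then Plcg2 at 34.6, Btk at 33.8, Oscar at 25.8, Syk at 19.2, Trem2 at 15.2, Lilrb4a at 7.53 and Pirb at 0.305 FPKM. This order was the same in the T1 and T2 libraries. Plcg2 and Btk were the neighbours whose intervals overlapped in all 3 libraries, and Oscar (19.3 FPKM) and Syk (17.7 FPKM) overlapped in T2 alone.

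**Figure D1:**
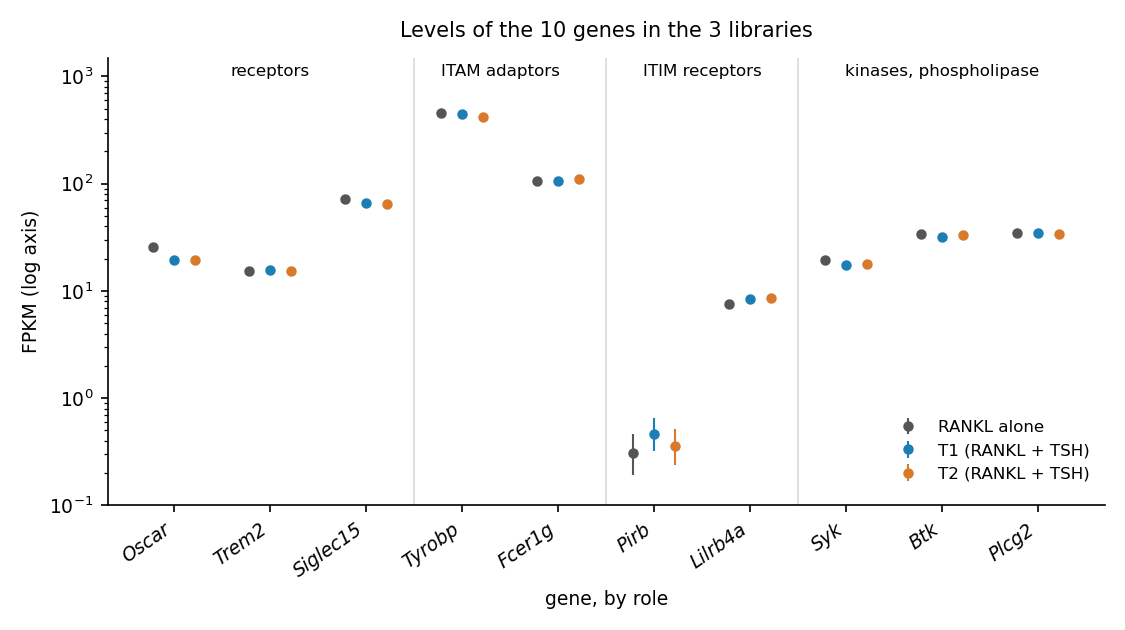
Level of each of the 10 members in FPKM on a log axis, with 1 point per library (RANKL alone, T1, T2) and 95% counting intervals as bars. Tyrobp lies highest and Pirb lowest in each library, and the points of Oscar are separated between RANKL alone and the TSH libraries.

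The adaptor excess can be put as a ratio of levels per length. Tyrobp was 6.27 times Siglec15, a receptor that uses DAP12, after RANKL alone, 6.73 times in T1 and 6.41 times in T2. Fcer1g was 4.13 times Oscar, its receptor partner, after RANKL alone, 5.42 times in T1 and 5.77 times in T2. The gap between Oscar and its adaptor was thus wider in both TSH libraries, and it was Oscar, not Fcer1g, whose level was lower there. The ratio of Tyrobp to Siglec15 was also higher in both TSH libraries, by a smaller proportion. For Clec4d and Cd300lb, picked from the list of other receptors further below, the gap was not wider in both. Plxna1 of that list had ratios to RANKL alone of 0.909 in T1 and 0.895 in T2, and Tyrobp of 0.988 and 0.915. Fcer1g was 4.96, 4.74 and 4.54 times Clec4d after RANKL alone, in T1 and in T2. Tyrobp was 6.34, 6.68 and 6.16 times Cd300lb. Between the adaptors, Tyrobp was 4.26, 4.21 and 3.73 times Fcer1g in the same order of libraries.

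These levels depend on the length by which reads were divided. For Trem2 the deposited gene length is 4946 bases, while its principal transcript has 1088, a ratio of 4.55. By the transcript's length the level of Trem2 after RANKL alone would be 69.2 instead of 15.2, near that of Siglec15. For Lilrb4a the lengths are 5227 and 1381 bases, and the level would be 28.5 instead of 7.53, above Oscar at 26.1. Both genes have transcripts annotated as retaining an intron, 1 of 4 for Trem2 and 9 of 14 for Lilrb4a. Syk would stand at 33.6 instead of 19.2, while Siglec15 and Plcg2 have the same length either way. Where along a gene its reads fall is not known from the table, so the order below Siglec15 is uncertain: by transcript length it would run Trem2, Btk (41.9), Plcg2 (34.6), Syk, Lilrb4a, Oscar and Pirb. Ratios of a gene between libraries do not depend on its length.

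**Figure D2:**
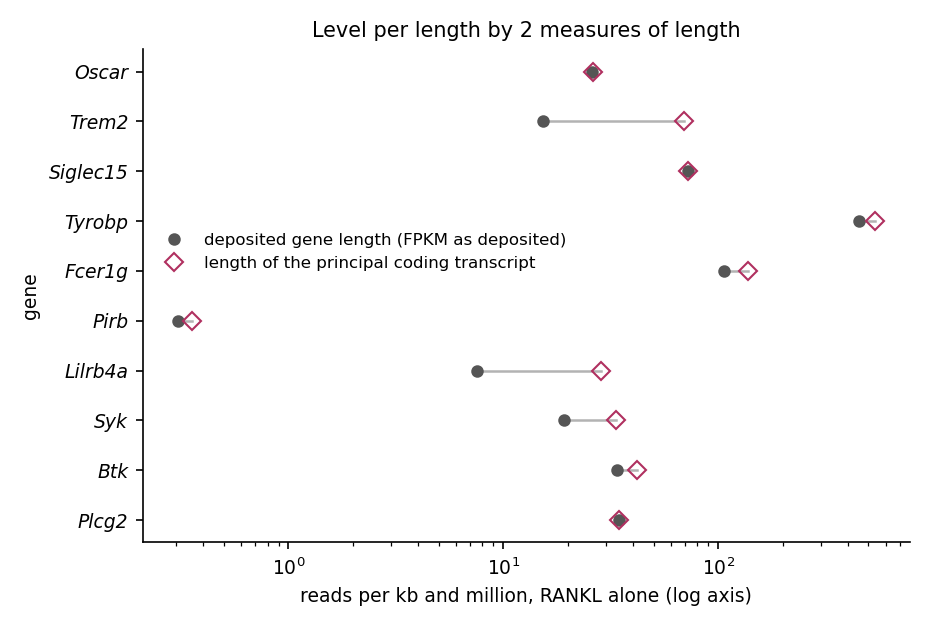
Level of each member after RANKL alone, by the deposited gene length and by the length of the principal coding transcript of GENCODE M21, on a log axis. Trem2, Lilrb4a and Syk move most, and Siglec15 and Plcg2 do not move.

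Oscar, the osteoclast-associated receptor for collagen motifs, was the member with the largest difference between RANKL alone and the TSH libraries. It lies on chromosome 7, from 3609813 to 3616157 on the minus strand (GRCm38). Its level was 25.8 FPKM (768 reads) after RANKL alone, 19.6 FPKM (607 reads) in T1 and 19.3 FPKM (624 reads) in T2. The library of RANKL alone was high and the TSH libraries were low and close to each other. The ratio to RANKL alone was 0.760 (0.682 to 0.847) in T1 and 0.748 (0.672 to 0.832) in T2, and T2 against T1 was 0.984 (0.878 to 1.10). On the log2(FPKM + 1) scale, which understates the changes of low genes, these were differences of -0.38, -0.40 and -0.02. Among the 5940 genes with at least 500 reads in each library, a limit chosen after the value of Oscar was seen, 13 were at or below the change of Oscar in T1 (0.219%, Oscar included) and 9 in T2 (0.152%).

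The genes beside Oscar did not share its difference. Of 5 neighbours within 50000 bases with a mean of at least 1 FPKM, Ndufa3, a subunit gene of mitochondrial complex I that starts 1216 bases away, was at 46.0, 49.6 and 48.1 FPKM after RANKL alone, in T1 and in T2. Its ratios were 1.08 (0.976 to 1.19) and 1.05 (0.947 to 1.15), and their intervals did not overlap those of Oscar. Cnot3, of the deadenylase complex, was lower beyond counting error in T1 at 0.923 (0.853 to 0.999) and not in T2 at 0.972 (0.900 to 1.05). Leng1 was higher in T2 at 1.39 (1.06 to 1.84). The ratios of Tfpt and Prpf31 lay between 0.978 and 1.08.

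The 250 bases upstream of Oscar are printed because Oscar alone among the members passed the fold rule below, and because NFATc1 with PU.1 is known to drive it, and those of Fcer1g, the gene of its adaptor, are set beside them. RefSeq promoter entries (GRCm38.p6) were found for 7 of the 10 members. Capitals mark GGAAA, the core that NFAT factors bind, and GAGGAA, the core of PU.1 and its relatives, on either strand. Both sequences are written 5′ to 3′ on the strand of the gene and end at the base before the start of transcription. That of Oscar is chr7:3616158-3616407 and that of Fcer1g is chr1:171234350-171234599, both on the minus strand:
Oscar: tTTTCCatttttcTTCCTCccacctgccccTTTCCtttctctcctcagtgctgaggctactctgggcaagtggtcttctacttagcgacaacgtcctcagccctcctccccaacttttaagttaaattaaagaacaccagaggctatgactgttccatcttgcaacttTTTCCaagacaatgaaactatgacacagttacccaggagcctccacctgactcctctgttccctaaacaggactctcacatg
Fcer1g: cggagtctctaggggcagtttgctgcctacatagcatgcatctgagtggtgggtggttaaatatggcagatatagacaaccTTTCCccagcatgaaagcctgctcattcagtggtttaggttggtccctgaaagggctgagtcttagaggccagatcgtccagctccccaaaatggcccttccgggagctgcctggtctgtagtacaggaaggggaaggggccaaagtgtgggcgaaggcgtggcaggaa
Oscar held GGAAA 3 times, starting at bases -249, -220 and -82 from the start site, and GAGGAA once at -237. Fcer1g held GGAAA once, at -169. Trem2, whose level was within counting error of RANKL alone, held the same number of matches as Oscar, with GGAAA at -227, -78 and -45 and GAGGAA at -40, and it also held the AP-1 pattern TGANTCA at -9. Of the other members with an entry, Pirb held GGAAA 1 time and GAGGAA 3 times, Plcg2 GGAAA 2 times and Btk GGAAA 1 time. Syk has a pair of entries, of which 1 held each motif 1 time and the other held neither. In Pirb and Syk the GGAAA match overlaps a GAGGAA match. GGAAA and GAGGAA were thus equal in number in Oscar and Trem2, and whether they bear on either level was not tested. GGAAA was present in 55.6% and GAGGAA in 23.1% of 27025 promoters of this length. The E-box CACATG was in the Oscar window at -6 and in 12.2% of promoters. CACGTG (6.05% of promoters) and TGANTCA (6.87%) were not among the letters of the Oscar and Fcer1g windows. The motifs are descriptions of the windows and were not tied to the changes by any test.

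The genes outside all lists that lay nearest to Oscar in the plane of both changes were sought among 9134 with at least 100 reads in each library. Gpnmb, a glycoprotein gene of macrophages and osteoclasts, was at 163 FPKM after RANKL alone, 124 in T1 and 123 in T2, with log2 changes of -0.39 and -0.41. Hmx3, a homeobox gene, was at 13.6, 10.3 and 9.91 FPKM, and Nkain1 at 10.6, 8.07 and 7.76 FPKM. Their distances from Oscar in that plane were 0.0115, 0.0213 and 0.0232, computed from 3 libraries.

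Siglec15, a sialic acid receptor of osteoclasts that signals through DAP12, showed a smaller difference in the same direction. It lies on chromosome 18 from 78043614 to 78057395, on the minus strand. Its level was 72.2 FPKM after RANKL alone, 66.5 in T1 and 64.7 in T2. The TSH libraries were again the lower ones. The ratios were 0.921 (0.853 to 0.995) in T1 and 0.896 (0.830 to 0.967) in T2, and 0.973 (0.900 to 1.05) between the TSH libraries. The T1 interval ends close to 1, and at 99% it ran from 0.832 to 1.02, so that this call was lost. The interval of Oscar lay wholly below that of Siglec15 in T1, and in T2 they met at the second decimal, 0.832 for the upper end of Oscar and 0.830 for the lower end of Siglec15.

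Trem2, a lipid and apolipoprotein receptor that also signals through DAP12, did not differ beyond counting error in any comparison. It lies on chromosome 17, 48346401 to 48354147, plus strand, and stood at 15.2, 15.7 and 15.4 FPKM after RANKL alone, in T1 and in T2. The ratios were 1.03 (0.954 to 1.12) in T1 and 1.01 (0.936 to 1.10) in T2. These intervals leave out the ratio of Oscar, at a read depth (1214 to 1335 reads) above that of Oscar. In both TSH libraries the intervals of Oscar lay wholly below those of Trem2, while those of Siglec15 and Trem2 overlapped.

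Of the adaptors, Tyrobp was lower in T2 and Fcer1g was not called in any comparison. Tyrobp (chromosome 7, 30413760 to 30417585, plus strand) was at 453 FPKM after RANKL alone, 447 in T1 and 414 in T2. The first pair lay close together, and T2 was the low library. The ratio was 0.988 (0.949 to 1.03) in T1, 0.915 (0.879 to 0.953) in T2 and 0.927 (0.890 to 0.964) for T2 against T1. Tyrobp was the one member to differ beyond counting error between the TSH libraries.

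Fcer1g (chromosome 1, 171229572 to 171234365, minus strand) was at 106 FPKM after RANKL alone, 106 in T1 and 111 in T2. Its ratios were 0.998 (0.929 to 1.07), 1.05 (0.976 to 1.12) and, for T2 against T1, 1.05 (0.978 to 1.12). The last was 1.07 with libraries rescaled to the same FPKM total, and then higher beyond counting error. In T2 the intervals of the adaptors did not overlap, with Tyrobp below Fcer1g. The summed level of both was 559 FPKM after RANKL alone, 553.5 in T1 and 526 in T2. Fcer1g is also a chain of the IgE receptor of mast cells, whose other chains, Fcer1a and Ms4a2, had 0 reads in all 3 libraries.

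Of the inhibitory receptors, Lilrb4a was measured and Pirb was near the floor. Lilrb4a (chromosome 10, 51490956 to 51496611, plus strand) was at 7.53 FPKM after RANKL alone, 8.45 in T1 and 8.55 in T2, and was the one member higher beyond counting error in the TSH libraries. The ratios were 1.12 (1.01 to 1.25) and 1.14 (1.02 to 1.26), with 1.01 (0.913 to 1.12) between T2 and T1. Both lower ends lie close to 1: at 99% the intervals began at 0.975 and 0.988, and with libraries rescaled to the same FPKM total the T1 ratio was 1.10 (0.990 to 1.23).

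Reads of Lilrb4a may be shared with copies, so its value is uncertain. For Lilr4b the alignment of highest identity was 99.1% over 334 bases, which need not be the full extent of likeness. Lilr4b was at 7.22 FPKM after RANKL alone, 8.65 in T1 and 8.75 in T2, with ratios of 1.2 (1.08 to 1.33) and 1.21 (1.09 to 1.35). Gm49339, which overlaps Lilrb4a on the same strand at 100% identity, was listed with 0 reads. Summed over Lilrb4a and both copies, the reads were 1268, 1530 and 1617, and the ratios 1.16 (1.08 to 1.25) and 1.17 (1.09 to 1.26). The sum was therefore also higher beyond counting error, with ends farther from 1 than for Lilrb4a alone. An antisense gene, Gm40645, overlaps Lilrb4a with 5 to 10 reads per library.

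Pirb (chromosome 7, 3711409 to 3720391, minus strand), a receptor for class I molecules, had 22 reads after RANKL alone, 35 in T1 and 28 in T2, or 0.305, 0.467 and 0.357 FPKM. It begins 95252 bases from the end of Oscar, in the same cluster of leukocyte receptor genes. Its ratios were 1.53 (0.873 to 2.74) in T1 and 1.17 (0.646 to 2.15) in T2, and no difference was detectable at this depth. The gene has 8 copies, among them Lilra6 and Pira2, whose best alignments were 95.9% to 97.5% identical. These spanned 100 bases in Gm11032, which had 0 reads, and 1506 to 1928 bases in the others. With their reads added, the sums were 45, 67 and 51, and the ratios 1.43 (0.967 to 2.14) and 1.04 (0.685 to 1.59). For the other 8 members no such copy was found.

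Among the enzymes, Syk was lower in both TSH libraries and Btk and Plcg2 were within counting error of RANKL alone. Syk (chromosome 13, 52583173 to 52648792, plus strand) was at 19.2 FPKM after RANKL alone, 17.3 in T1 and 17.7 in T2. The ratios were 0.901 (0.855 to 0.950) and 0.920 (0.874 to 0.969), and T2 against T1 was 1.02 (0.969 to 1.08). Syk had 2721 to 2904 reads per library, which makes a difference of this size visible.

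Btk (chromosome X, 134542336 to 134583570, minus strand), a kinase that phosphorylates PLCγ2, was at 33.8, 32.0 and 33.3 FPKM after RANKL alone, in T1 and in T2. Its ratios were 0.945 (0.883 to 1.01) and 0.984 (0.921 to 1.05). With libraries rescaled to the same FPKM total the T1 ratio was 0.928 (0.868 to 0.993), which is beyond counting error. A pseudogene on the opposite strand, Gm15154, had 4 reads in each library. Plcg2 (chromosome 8, 117498291 to 117635142, plus strand) was the steadiest member, at 34.6, 34.9 and 34.3 FPKM. Its ratios of 1.01 (0.952 to 1.07) and 0.990 (0.936 to 1.05) leave out a difference of the size of Oscar. Both genes are also known from B cells, whose markers Ms4a1 and Pax5 had 0 reads in all 3 libraries.

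**Figure D3:**
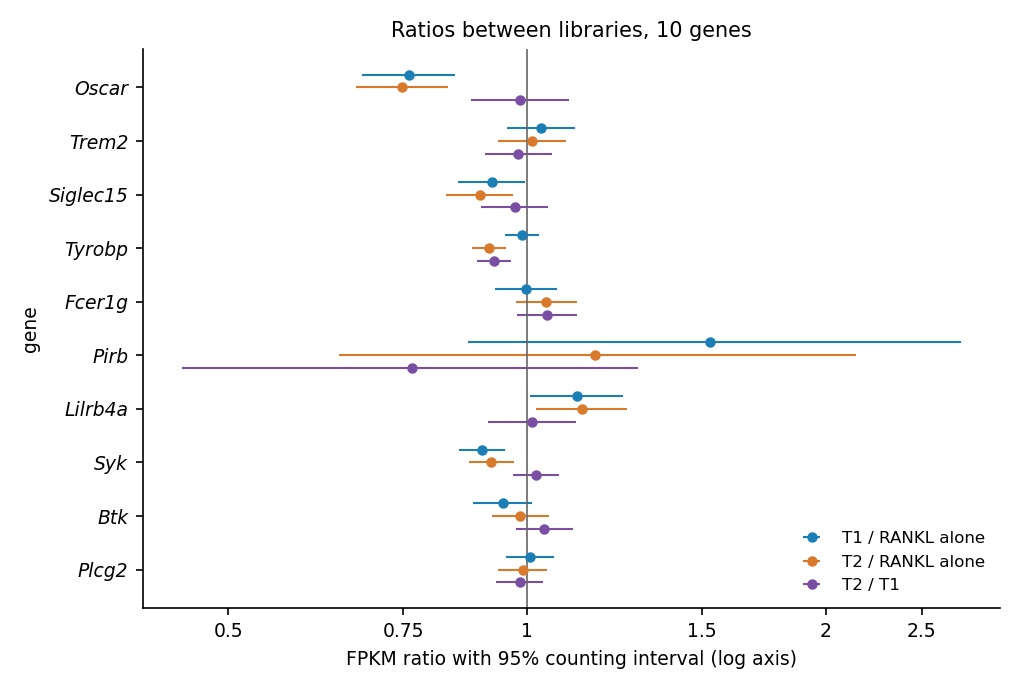
FPKM ratio of each member for T1 against RANKL alone, T2 against RANKL alone and T2 against T1, with exact 95% counting intervals as bars and a line at 1. Oscar lies at 0.760 and 0.748 in the TSH libraries, Lilrb4a lies above 1, and the wide bars belong to Pirb.

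Counted over the 9 members measured, 1 (Oscar) differed by at least 1.2-fold from RANKL alone in T1 on the log2(FPKM + 1) scale, on which this rule is read throughout, where 10.2% of all 11069 genes did. In T1, 3 members were lower beyond counting error (Oscar, Siglec15 and Syk), against 12.2% of all genes, and 1 was higher (Lilrb4a), against 10.8%. In T2, 1 member (Oscar) passed 1.2-fold, against 9.91% of genes, 4 were lower (Oscar, Siglec15, Tyrobp and Syk), against 13.2%, and 1 was higher (Lilrb4a), against 10.2%. Between T2 and T1 no member passed 1.2-fold, where 8.45% of genes did. There 1 member was lower (Tyrobp), against 10.1%, and 0 were higher, against 7.93%. The count past 1.2-fold, 1 of 9, was thus close to the share over all genes, and the counts lower beyond counting error in T1 and T2 were above theirs.

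Depth bears on this reading, since well covered genes pass at smaller changes. Among the 5940 genes with at least 500 reads in each library, 16.3% were lower and 13.1% higher beyond counting error in T1, and 18.4% and 12.6% in T2. All 9 members measured had at least 500 reads in each library. Their median log2 change was -0.02 in T1 and in T2, and that of all genes 0.00 in both. By direction alone, 6 members were lower and 3 higher in T1 and in T2. With libraries rescaled to the same FPKM total the T1 split was 7 to 2, and the split for T2 against T1 changed from 5 lower and 4 higher to 2 lower and 7 higher.

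**Figure D4:**
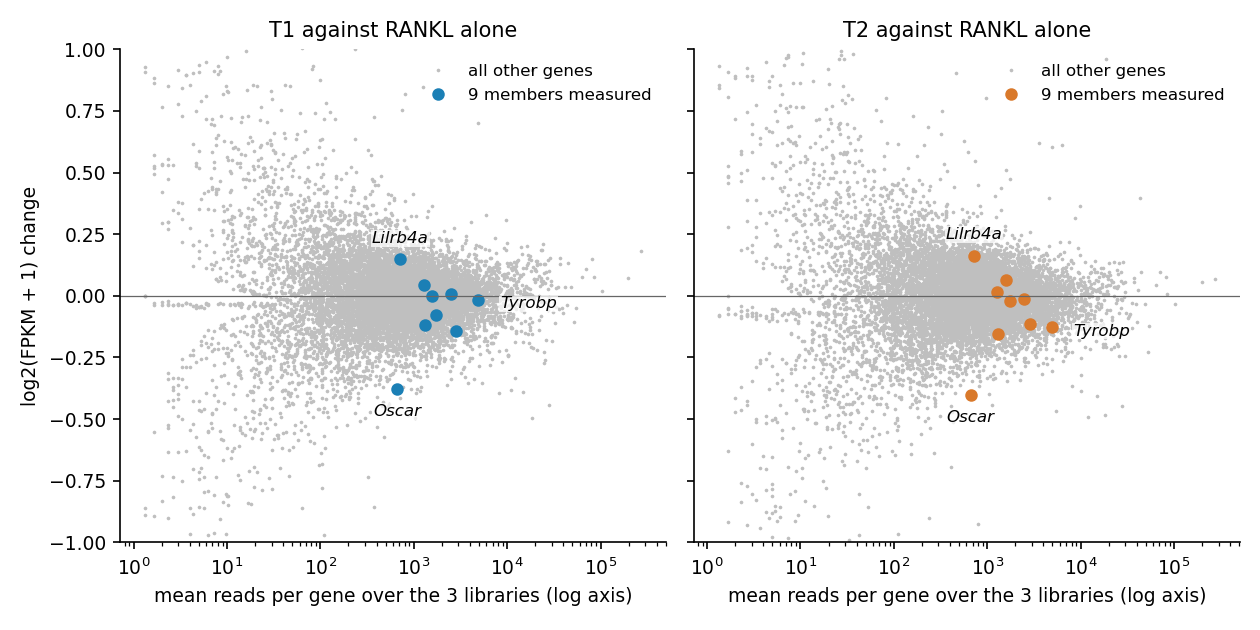
Change on the log2(FPKM + 1) scale against the mean number of reads per gene (log axis) for all genes whose mean reached 1 FPKM, in T1 and T2 against RANKL alone, with the 9 members measured as large points. Oscar lies at the lower edge of genes of its depth and Lilrb4a within the band; 166 genes beyond the axis in either panel are not drawn.

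The rest of the pathway was read in lists, 173 of whose 179 genes were in the table together with the marker lists. The counts beyond counting error in all these lists stand beside the same shares over the 11069 genes. Those were 12.2% lower and 10.8% higher in T1, and 13.2% and 10.2% in T2. Among the 5940 genes with at least 500 reads in each library they were 16.3% and 13.1% in T1, and 18.4% and 12.6% in T2. Of 31 other receptors that pair with ITAM adaptors, 26 were found and 9 measured, while 7 had 0 reads in all libraries. The list also holds relatives not known to use these adaptors, such as Clec7a, Treml1 and Treml2, which were not measured, and it counts Hcst, the gene of the adaptor DAP10, which has no ITAM, among the 9 measured. In T1, 3 were lower and 6 higher, with 2 lower and 1 higher beyond counting error and a median of 0.10. In T2, 2 were lower and 7 higher, again with 2 and 1 beyond counting error, and the median was 0.14. The median of this list thus had the opposite sign to that of the members, which was close to 0 at -0.02 in both. The lower genes beyond counting error were Cd300lb, at 0.938 (0.894 to 0.985) and 0.942 (0.898 to 0.988), and Plxna1, at 0.909 (0.841 to 0.983) and 0.895 (0.828 to 0.9675). The higher ones were Clec4e in T1, at 1.21 (1.01 to 1.45), and Clec4d in T2, at 1.14 (1.02 to 1.28). Fcgr4, an activating Fc receptor that uses the gamma chain, passed 1.2-fold in both, at 2.71 FPKM after RANKL alone, 3.75 in T1 and 3.50 in T2, but its ratios of 1.38 (0.967 to 1.99) and 1.29 (0.900 to 1.86) stayed within counting error. Hcst was at 8.42, 10.2 and 8.85 FPKM and Clec4n, the gene of dectin-2, at 1.004, 0.966 and 1.37 FPKM, both within counting error of RANKL alone.

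The list of Src family and other tyrosine kinases that act on ITAMs, and of their partners, had 15 genes, of which 10 were measured. Among the 10 were Ptprc and Ptprj, which are genes of receptor tyrosine phosphatases and not of kinases. In T1 and in T2, 8 were lower and 2 higher, and the median was -0.12. In each, 5 were lower beyond counting error and 0 higher, where 12.2% of all genes were lower in T1 and 13.2% in T2. Ptprc was among the 5 in both, at ratios of 0.912 and 0.925, and Ptprj in neither. Src itself, which osteoclasts need to resorb bone, was at 75.2 FPKM after RANKL alone, 65.1 in T1 and 62.8 in T2. The ratios of Src were 0.867 (0.833 to 0.901) and 0.835 (0.803 to 0.869), so it was lower in proportion than Syk was in T2, where the intervals did not overlap. Lyn was at 26.1, 25.2 and 23.4 FPKM and lower beyond counting error in T2, at 0.898 (0.839 to 0.962). Fyn was at 6.79, 5.95 and 7.46 FPKM, lower in T1 at 0.875 (0.767 to 0.999) and not in T2. None of the 10 passed 1.2-fold against RANKL alone.

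The adaptors and exchange factors that join Syk to PLCγ2 numbered 24, with 21 measured. In T1, 13 were lower and 8 higher, 5 and 1 of them beyond counting error, and in T2 15 were lower and 6 higher, 6 and 1 beyond it, with a median of -0.04 in each. Vav1, an exchange factor for Rac, was at 32.1, 27.9 and 28.4 FPKM, with ratios of 0.868 (0.813 to 0.927) and 0.884 (0.829 to 0.943). Blnk, the scaffold for Btk and PLCγ2, was at 2.40, 2.00 and 1.88 FPKM and lower beyond counting error in T2 at 0.781 (0.643 to 0.949). Fyb was lower in T1 at 0.796 (0.661 to 0.959) and not in T2 at 0.906 (0.758 to 1.08). No gene of this list passed the 1.2-fold rule on the log2(FPKM + 1) scale, on which Blnk was at -0.24 in T2 and Fyb at -0.24 in T1.

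Downstream, the list of calcium release and calcineurin had 17 of 18 genes measured. In T1, 7 were lower and 10 higher, 4 and 1 beyond counting error, with a median of 0.02. In T2, 9 were lower and 8 higher, also 4 and 1 beyond it, with a median of -0.01. Itpr2, a calcium release channel gene, was at 3.27, 2.83 and 2.75 FPKM, with ratios of 0.866 (0.781 to 0.960) and 0.841 (0.759 to 0.932). Nfatc1, at the end of this path, was at 165, 173 and 159 FPKM, higher beyond counting error in T1 at 1.05 (1.03 to 1.07) and lower in T2 at 0.962 (0.943 to 0.980). Itpr3 was lower in T2 at 0.884 (0.837 to 0.933), and Camk2d, a calcium-dependent kinase gene, in both at 0.894 (0.833 to 0.958) and 0.856 (0.799 to 0.918).

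The genes that oppose the signal did not move one way. Of 6 other inhibitory receptors measured among 17, 2 were lower and 4 higher in T1 and in T2, with medians of 0.03 and 0.02. Beyond counting error, 1 was lower in T1 and in T2, and 2 were higher in T1 and 0 in T2. Clec4a2 was the lower one, at 30.5, 25.9 and 26.9 FPKM, with ratios of 0.848 (0.785 to 0.915) and 0.883 (0.819 to 0.951). Sirpa was at 80.0, 85.2 and 80.6 FPKM and Cd300a at 17.4, 18.9 and 16.8 FPKM, both higher beyond counting error in T1 alone of the TSH libraries.

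Of 16 phosphatases and other brakes 12 were measured, with 8 lower and 4 higher in T1 and in T2. In T1, 2 were lower and 1 higher beyond counting error, and in T2 6 and 1, with medians of -0.02 and -0.08. Cblb, a ubiquitin ligase gene, was at 2.65 FPKM after RANKL alone, 1.91 in T1 and 2.21 in T2. Its ratios were 0.721 (0.624 to 0.832) and 0.836 (0.729 to 0.958), and it passed 1.2-fold in T1. Inpp5d, the gene of the lipid phosphatase SHIP1, was lower in T2 at 0.887 (0.837 to 0.939), and Dok3 in both at 0.894 (0.842 to 0.948) and 0.913 (0.862 to 0.968).

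Of 11 ligands and their partners, 5 were measured, and none passed 1.2-fold. The medians were -0.06 in T1, with 1 lower and 0 higher beyond counting error, and 0.11 in T2, with 1 and 1. B2m, the light chain of class I molecules, was at 452, 462 and 489 FPKM, higher in T2 at 1.08 (1.04 to 1.12). Apoe, a ligand of Trem2, was at 5.02, 4.46 and 5.53 FPKM, within counting error of RANKL alone. Cd44 was lower in both, at 0.943 (0.915 to 0.972) and 0.920 (0.892 to 0.948).

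**Figure D5:**
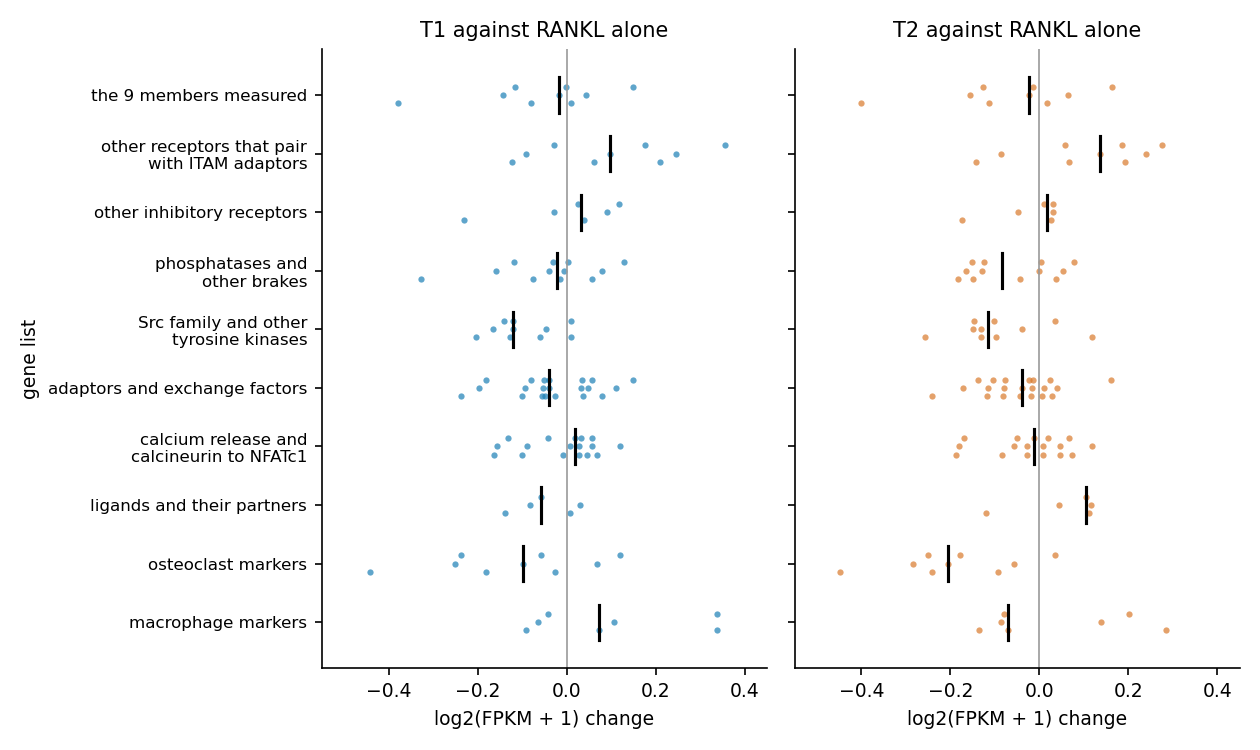
Change of each measured gene on the log2(FPKM + 1) scale, by list, for T1 and T2 against RANKL alone, with the median of each list marked. The list of Src family and other tyrosine kinases, which also holds Ptprc and Ptprj, has a median of -0.12 in both TSH libraries. The list of other receptors lies at 0.10 and 0.14.

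Most of the osteoclast markers measured were lower along with Oscar. Of 9 measured among 10, 7 were lower and 2 higher in T1, with 5 lower and 2 higher beyond counting error. In T2, 8 were lower and 1 higher, with 8 lower and 0 higher beyond it. Over all 11069 genes, 12.2% were lower and 10.8% higher beyond counting error in T1, and 13.2% and 10.2% in T2. The markers higher in T1 were Car2, at 1.09 (1.06 to 1.115), and Nfatc1, at 1.05 (1.03 to 1.07). In T2 Car2 was at 1.025 (0.9995 to 1.051), and Nfatc1 was lower at 0.962 (0.943 to 0.980). The medians of the list were -0.10 and -0.21, and its summed level was 3367 FPKM after RANKL alone, 2875 in T1 and 2780 in T2. Ctsk, the collagen-degrading protease, had ratios of 0.736 (0.724 to 0.748) and 0.733 (0.721 to 0.745), whose intervals lie inside those of Oscar. Itgb3 was at 13.7, 11.3 and 11.0 FPKM and passed 1.2-fold in T2, and Atp6v0d2 was at 248, 210 and 208 FPKM. The part of this shift in the values of Oscar, Siglec15 and Syk was not tested.

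Macrophage markers, 7 of 10 measured, did not move one way, with 3 lower and 3 higher beyond counting error in T1 and in T2, and summed levels of 1494, 1464 and 1458 FPKM. Adgre1 was at 1.82, 2.56 and 2.43 FPKM, past 1.2-fold in both, Itgam at 1.05, 1.59 and 0.931 FPKM, past it in T1, and Lyz2 at 194, 209 and 223 FPKM. Of other cell types, a mean of 1 FPKM was reached by 0 of 8 B cell, 0 of 8 mast cell and 0 of 8 neutrophil markers. Of 8 natural killer and T cell markers 1 did, Lck, at 1.25, 1.04 and 1.30 FPKM, while 6 had 0 reads in all libraries. The summed levels after RANKL alone, in T1 and in T2 were 0.0153, 0.184 and 0.355 FPKM for B cells, 0.0626, 0.0864 and 0.0974 FPKM for mast cells, and 0.207, 0.0780 and 0 FPKM for neutrophils. At 0 reads in every library were also 4 B cell, 5 mast cell and 4 neutrophil markers.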

How the data were processed

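RNA levels were measured in 3 libraries of RAW264.7 cells, 1 per group, from total RNA, per the labels' protocols. The authors deposited FPKM per gene with 1 column per library, and beside them the gene length in bases; 0 per-sample columns were left unused. Builds are GRCm38 and mm10, per the submitters' processing notes. For the aligner, the counting tool and how it used strand and multiply placed reads: not given in the sources used here. Members and all gene lists were chosen with earlier results of these data known.

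Multiplied by gene length, 100% of FPKM values above 0 were whole multiples (within 0.01) of 1 step per library, which gave reads per gene; 3 reads in a gene of 1 kb are 0.186, 0.179 and 0.171 FPKM. PCR copies are not independent molecules. No count test was run, since no group has replicates. Changes are differences of log2(FPKM + 1) for genes averaging at least 1 FPKM, and the fold rule was 1.2 (0.263 in log2). Genes named are the 10 members, up to 3 genes per list with the largest change and those past the fold rule, and the 3 genes nearest to a member past it; markers at 0 reads, neighbours, copies, Nfatc1 and genes of the closing section were added with their values in view.

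Near-identical copies, at 95% identity or more over 100 bases and 50% of the shorter transcript, were searched by BLAST+ 2.17.0 in GENCODE M21, which held 99.8% of the identifiers, 98.3% of them with the same coordinates. Motifs planned for RefSeq proteins were searched in translated GENCODE coding sequences instead. Functions were tested on simulated data. Alternatives were the pseudocounts 0.1 and 5, no filter or a mean of 5 FPKM, 2 other scalings, folds of 1.5 and 2, 99% intervals, summed copies and, added after the data were seen, transcript length and the filters for the counts beyond counting error. Scripts ran in Python 3.11.15 (pandas 2.3.3, numpy 2.4.6, matplotlib 3.10.9, scipy 1.17.1).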

Additional observations from a re-analysis of the deposited data

How the results depend on the processing

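Of 226 values recomputed under the alternatives, 211 stayed close to their main value or within counting spread. Of the rest, 15 moved beyond this and 0 reversed beyond it, and 122 of 126 member changes kept their sign. Some of the 211 could not differ. All members measured average above 5 FPKM, so the 15 values under that filter equal the main ones. The largest member change of each comparison was also counted again beside the change of that gene. Not every call held among the 211. In T1, 4 members instead of 3 were lower beyond counting error with libraries rescaled to the same FPKM total, as Btk was added. With 99% intervals there were 2, as Siglec15 was lost. The median member change for T2 against T1 was 0.01 instead of -0.02 with libraries rescaled to the same FPKM total. The number of members past the fold rule, 1 for T1 and 1 for T2, each against RANKL alone, was 0 at a fold of 1.5 and 0 at a fold of 2 in both. The number higher beyond counting error in T1 was 0 instead of 1 with libraries rescaled to the same FPKM total and 0 with 99% intervals. In T2 it was 0 with 99% intervals, so the call of Lilrb4a was lost. For T2 against T1, 1 member (Fcer1g) was higher with libraries rescaled to the same FPKM total, against 0. That scaling moved the median of all genes by -0.02, 0.01 and 0.03 in the 3 comparisons. The change of Pirb for T2 against T1 was -0.31 at a pseudocount of 0.1. The other 6 values that moved are levels by transcript length (Trem2, Tyrobp, Fcer1g, Lilrb4a, Syk and Btk). No paired analysis was possible because each group has 1 library. Depth limits Pirb, whose 22 to 35 reads leave an interval from 0.873 to 2.74 for its T1 ratio, while the interval of Tyrobp runs from 0.949 to 1.03.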

Other observations

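Some receptors of the lists lay under the mean of 1 FPKM, and the following were singled out after their values were seen. Clec7a, the gene of dectin-1, a fungal glucan receptor with an ITAM-like tail, had 14 reads after RANKL alone, 33 in T1 and 37 in T2, with ratios of 2.27 (1.18 to 4.58) and 2.43 (1.28 to 4.87). Treml1, a relative of Trem2, had 13, 30 and 23 reads, a ratio of 2.22 (1.12 to 4.64) in T1 and of 1.63 (0.791 to 3.50) in T2. Cd200r1, an inhibitory receptor gene, had 56, 34 and 32 reads, with ratios of 0.584 (0.370 to 0.910) and 0.526 (0.330 to 0.826). These rest on few reads of 1 library per group. Trem1, Treml2, Pilrb1, Pilrb2 and Siglech, of the same list, were listed at 0 reads in all 3 libraries.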
